A study of Caenorhabditis elegans with 4 samples.

Results

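The genes described here are 10 components of the 2 TGF-beta pathways of the nematode Caenorhabditis elegans, one that controls entry into the dauer larva and one that controls body size. They are the ligand genes daf-7 and dbl-1, the receptor genes daf-1, daf-4 and sma-6, the Smad genes daf-8, daf-14, daf-3 and sma-3, and daf-5. They were found by symbol among array probes annotated with a single gene. All 10 were present, on 11 of 21632 probes and among 14943 genes on the array, since daf-3 had 2 probes and each of the others 1. The set was put together from knowledge of the pathways and not by a cutoff on a measured value, but earlier results of these data were known.

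RNA came from wild-type (wt) animals in the second larval stage, L2, as 4 preparations, preps 1 to 4. Each was hybridised on its own 2-colour DNA array beside RNA labelled as a wild-type mixed reference. The sources used here do not say what had been mixed. No mutant, treatment or other stage was part of the design, so the question the data can answer is how each gene's level in L2 compared with that in the reference. Every value below is a log2 ratio after each array was centred on its median, and n is the number of preps. Channel 1 held the reference and channel 2 the larval RNA, but no dye is named, so a positive ratio is read as likely higher in L2. Yolk protein genes, which the adult intestine transcribes, had medians between -6.44 and -4.40 in the 4 preps, and major sperm protein genes, transcribed where sperm form, had medians between -4.13 and -2.44. L2 larvae make neither, and the likely direction was read with these values in view. The arrays held values for 21209 to 21386 probes each. Across genes, prep 3 correlated with the others at r = 0.52 to 0.59, and the other preps with each other at r = 0.72 to 0.78, so prep 3 stood apart, and means without it are given beside those over 4 preps for each of the 10 genes.

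In both pathways a secreted ligand binds a type I and a type II receptor kinase on the receiving cell. The receptors then phosphorylate Smad proteins, which carry the signal into the nucleus. In the dauer pathway DAF-7, made by the ASI sensory neurons in good conditions, acts through DAF-1 and DAF-4 on the Smads DAF-8 and DAF-14. These oppose the co-Smad DAF-3 and its Sno/Ski-related partner DAF-5, which promote the dauer, a larva that survives without food. In the body size pathway DBL-1, a BMP-like ligand made mainly in neurons, acts through SMA-6 and the same DAF-4 on the Smads SMA-2, SMA-3 and SMA-4 in the hypodermis. Animals that lose it are small.

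Of the 10 genes, sma-3 alone passed the test and was higher in L2, at 0.79 ± 0.31 (SD, n = 4), or 1.73-fold, with a limma adjusted p = 0.0301. The other 9 did not pass, and 0 of 10 were lower. By the adjusted p, 4.85% of all 19941 features tested were called higher, 9.87% lower and 14.7% in either direction. That puts 1 call among 10 genes near the background. At an unadjusted p under 0.05 there were 2 higher, daf-7 and sma-3, and 1 lower, daf-4. The share of all features under this unadjusted cutoff was not counted. Such counts, here and for the lists below, therefore have no background beside them. The median of the 10 means was 0.00, against 0.01 over all features. The means ran from -0.73 for daf-4 to 0.79 for sma-3, and 7 of 10 lay within 0.5 of 0. Signs were positive in all 4 preps for 2 genes, daf-7 and sma-3, negative in all 4 for 1 gene, daf-4, and mixed for the other 7.

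**Figure D1:**
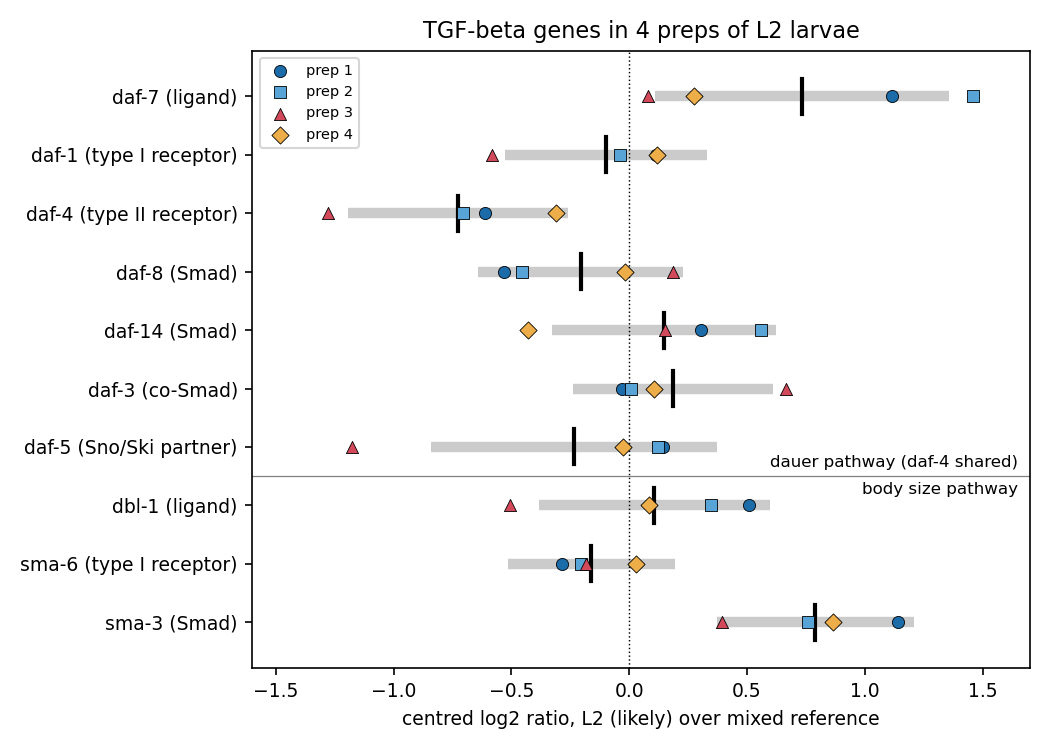
Centred log2 ratio (x axis) of each of the 10 genes in each of the 4 preps (symbols), with the mean (black line) and its 95% confidence interval from limma (grey bar). The values of sma-3 and daf-7 lie above 0 and those of daf-4 below 0 in all 4 preps, and prep 3 gives the lowest value of 6 genes.

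The ligand gene daf-7, whose product keeps larvae out of the dauer stage, was at 1.11, 1.46, 0.08 and 0.28 in preps 1 to 4. Preps 1 and 2 were high and preps 3 and 4 near 0, with no overlap between these pairs. The mean was 0.73 ± 0.66 (SD, n = 4; 95% confidence interval 0.11 to 1.36), or 1.66-fold, and it did not pass (limma adjusted p = 0.107). The mean ranked at the 92.6th percentile of 14921 genes and the SD at the 83.5th, so a high ratio came with a wide spread. Preps 1 and 2 have array names dated in one month and preps 3 and 4 in another. The mean of daf-7 was 1.29 in the first pair and 0.18 in the second. Whether the month or the larvae set this difference cannot be told apart, since each month holds 2 preps of the same group. Over all probes, deposited ratios also spread wider in preps 1 and 2, with SDs of 0.92, 1.02, 0.79 and 0.71 in preps 1 to 4. The part of this wider spread in the ratios of daf-7 was not tested. The adjusted p lay between 0.0678 and 0.307 when 1 prep was left out, the lowest being without prep 3, where the mean was 0.95.

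Other genes of the ASI neurons had mean ratios near 0. Of 4 listed, 3 could be tested, the G protein gene gpa-4, the chemoreceptor gene str-3 and the guanylyl cyclase gene gcy-27, and 0 passed. Their means lay between 0.02 and 0.12, and the list median was 0.01, 0.12, 0.05 and 0.13 in preps 1 to 4. Single genes moved more between preps, gpa-4 from -0.31 to 0.27, str-3 from -0.12 to 0.35 and gcy-27 from -0.11 to 0.37. Of 8 genes used by all neurons 0 passed, and their median was -0.20. The part of these neurons in the ratio of daf-7 was not tested. The RNA came from whole animals, so fewer cells of a type and less RNA per cell cannot be told apart, here or at any gene below.

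The ligand gene of the other pathway, dbl-1, was at 0.51, 0.35, -0.51 and 0.08. Prep 3 was the only one below 0. The mean was 0.11 ± 0.45 (SD, n = 4; interval -0.38 to 0.60; limma adjusted p = 0.745). It was -0.03 without prep 1 and 0.31 without prep 3 (adjusted p = 0.237). Within each array daf-7 had the higher ratio of the 2 ligand genes, by 0.63 ± 0.38 (SD) and by 0.19 to 1.11 in single preps, although their ranges over preps overlapped.

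Among the receptors, daf-4 encodes the type II receptor that both pathways use. It was at -0.61, -0.71, -1.28 and -0.31, below 0 in every prep and lowest in prep 3. The mean of -0.73 ± 0.41 (SD, n = 4; interval -1.19 to -0.26) was 1.66-fold lower in L2, and it missed the threshold narrowly (limma adjusted p = 0.0530). The call depended on the settings. It was made with scale (adjusted p = 0.0387) or quantile normalization (0.0415), with the month of the array as a random block (0.0342), over features present on all 4 arrays (0.04996) and over genes with a single name, a setting added after seeing the data (0.0451). It was not made without centring (0.0575) or with mean centring (0.0644), nor in any of the fits without 1 prep, with adjusted p from 0.0735 to 0.148, and without prep 3 the mean was -0.54. Calls over all features rose from 2936 to 3794 with the month as a block, whose estimated correlation was negative (-0.13). They rose to 3298 with scale and to 3361 with quantile normalization. A pass under these settings, for daf-4 or for genes below, is therefore not particular to that gene.

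Both type I receptor genes lay close to 0. For daf-1, the receptor that answers to DAF-7, the ratios were 0.12, -0.04, -0.58 and 0.12, so prep 3 was low and the others were near 0. The mean was -0.10 ± 0.33 (SD, n = 4; limma adjusted p = 0.732), and without prep 3 it was 0.06. For sma-6, the receptor that answers to DBL-1, the ratios were -0.29, -0.20, -0.18 and 0.03. It varied least of the 10 genes, with a mean of -0.16 ± 0.13 (SD, n = 4; limma adjusted p = 0.481; -0.15 without prep 3), and its SD ranked at the 6.09th percentile of all genes. All 4 values of daf-4 lay below all 4 of sma-6, with a difference of -0.57 ± 0.36 (SD), whereas the ranges of daf-4 and daf-1 overlapped.

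Germ line and oocyte genes were low in the same samples. Of 11 listed markers 9 fell and 0 rose, with means from -4.79 to -0.25 and a median of -2.96. By prep their median was -3.54, -3.96, -2.41 and -2.28. The part of germ line RNA in the ratio of daf-4 was not tested.

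**Figure D2:**
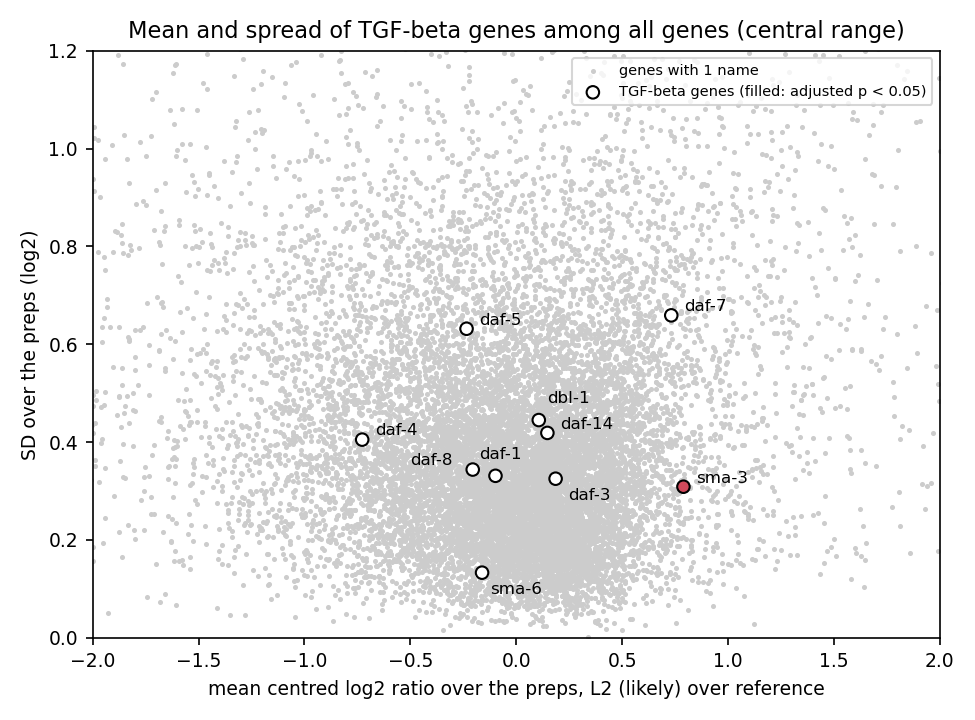
Mean log2 ratio over the preps (x axis) and SD over the preps (y axis, log2) for each gene with a single name (grey) and for the 10 TGF-beta genes (circles; filled where the adjusted p was under 0.05). Genes beyond the axes are not drawn. The filled point is sma-3 at a mean of 0.79 and SD of 0.31, while daf-7 has a mean of 0.73 and an SD of 0.66, and sma-6 has the smallest SD, 0.13.

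The Smad genes parted. For sma-3, a receptor-regulated Smad of the body size pathway, the ratios were 1.14, 0.76, 0.39 and 0.87. All were above 0, prep 3 being the lowest and prep 1 the highest. The mean of 0.79 (interval 0.37 to 1.21) ranked at the 93.6th percentile of 14921 genes, with an SD at the 38.2nd. The call was not firm against the loss of a prep, with adjusted p = 0.123, 0.0959 and 0.0995 without preps 1, 2 and 4, and 0.0219 without prep 3, where the mean was 0.92. It also ended when ratios were centred in each of 32 consecutive blocks of probes (run centring, likewise added after the data were seen; mean 0.65, adjusted p = 0.0724), and against a fold of 1.5 in place of 0 (adjusted p = 1). Over these alternatives the mean lay between 0.65 and 0.92. By month it was 0.95 for preps 1 and 2 and 0.63 for preps 3 and 4.

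Hypodermis is a tissue in which SMA-3 acts. Of 6 hypodermis genes 2 rose and 0 fell, the risen ones being the cuticle collagen genes rol-6 and dpy-13, and the rest had means between -0.56 and 0.45. The call of dpy-13 (2.05 ± 1.51; SD, n = 4; limma adjusted p = 0.0458) ended without prep 1, 2 or 4 (0.145, 0.151 and 0.124) and with scale (0.0638) or quantile normalization (0.0554). In prep 3 dpy-13 was at -0.17, against 2.35 to 3.14 in the others, and without prep 3 its mean was 2.79 (adjusted p = 0.00390). The list median was 0.12, and by prep it was 0.33, -0.14, -0.17 and 0.75. Medians were higher for markers of pharynx (1.54), body wall muscle (1.07) and intestine (0.67), and lower for pan-neuronal (-0.20) and germ line ones (-2.96). The gene rol-6 is also counted below among genes that answer to the body size pathway. The part of RNA from hypodermis or another tissue in the ratio of sma-3 was not tested.

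The partner Smads of the same pathway had lower ratios than sma-3. They were named after their values were seen, to complete the Smads of the pathway. The co-Smad gene sma-4 was at -0.18, 0.06, -0.32 and 0.06, and sma-2 at -0.52, -0.42, -0.57 and -0.43. Every value of sma-3 lay above every value of sma-4 and of the averaged sma-2. Within arrays sma-3 exceeded sma-4 by 0.89 ± 0.29 (SD, n = 4) and sma-2 by 1.28 ± 0.29, in 4 of 4 preps each. The mean of sma-4 was -0.10 ± 0.19 (limma adjusted p = 0.692) and that of sma-2 was -0.49 ± 0.08 (0.0683), with sma-2 past the threshold with array weights (0.0479), a robust fit (0.0390) or the month as a block (0.0466). In the fits without 1 prep sma-2 did not pass, with adjusted p from 0.0895 to 0.205. The narrow spread of sma-2 is that of an average of 2 probes that disagreed, one with a mean of 0.04 ± 0.41 and the other at -1.01 ± 0.47. The probe with the lower mean passed by itself (adjusted p = 0.0259) and the other did not (0.909). That other probe was at -0.20, 0.44, 0.33 and -0.42, so its range overlapped that of sma-3, whose lowest value was 0.39. Which of the probes better measures sma-2 is unknown.

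**Figure D3:**
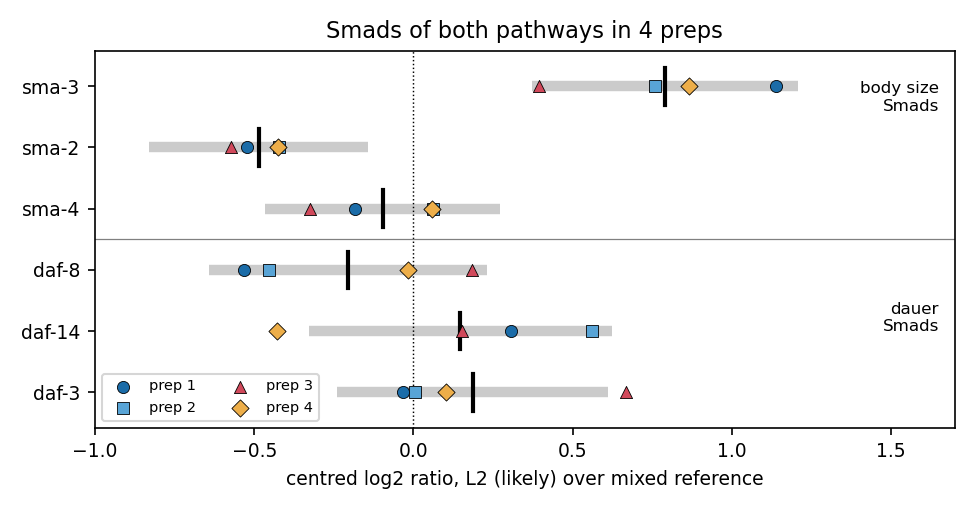
Centred log2 ratio (x axis) in each prep (symbols) of the Smad genes of the body size pathway (above the line) and of the dauer pathway (below it), with the mean (black) and 95% confidence interval (grey). All 4 values of sma-3, from 0.39 to 1.14, lie above those of sma-4 and of the averaged sma-2, and the values of sma-2 and daf-3 are averages of 2 probes that differed.

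The dauer pathway Smads held no call. For daf-8, a receptor-regulated Smad that restrains dauer formation, the ratios were -0.53, -0.45, 0.18 and -0.02. Preps 1 and 2 were the low ones here, opposite to daf-7, and the mean was -0.21 ± 0.34 (SD, n = 4; limma adjusted p = 0.464), or -0.33 without prep 3. For daf-14, a divergent Smad that acts beside it, the ratios were 0.30, 0.56, 0.15 and -0.43, prep 4 being the only one below 0. Its mean was 0.15 ± 0.42 (adjusted p = 0.635), and also 0.15 without prep 3.

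The 2 proteins that promote the dauer are DAF-3 and DAF-5, which act together in the nucleus. As an average of its 2 probes, daf-3 was at -0.03, 0.01, 0.67 and 0.10, with a mean of 0.19 ± 0.33 (SD, n = 4; limma adjusted p = 0.499). Without prep 3 the mean was 0.03 (adjusted p = 0.911). One probe read -0.43, 0.05, 1.63 and 0.04, and the other 0.37, -0.04, -0.30 and 0.17. The high value of prep 3 was therefore that of 1 probe, and the probes had opposite signs in preps 1, 2 and 3. For daf-5 the ratios were 0.14, 0.12, -1.18 and -0.03. Prep 3 stood far below the others, and the mean of -0.23 ± 0.63 (adjusted p = 0.550) became 0.08 without it. DAF-3 and DAF-5 are partners, but in prep 3 the averaged ratio of daf-3 was the highest of its 4 and that of daf-5 the lowest.

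For the 7 genes whose 95% confidence interval held 0, the intervals reached from -0.84, a 1.79-fold lower level, to 0.62, a 1.54-fold higher one. These are the outermost bounds over the 7 genes, and single intervals were narrower, such as -0.52 to 0.19 for sma-6. In order of mean ratio the genes were sma-3, daf-7, daf-3, daf-14, dbl-1, daf-1, sma-6, daf-8, daf-5 and daf-4, and the ranges of each neighbouring pair overlapped. Of 45 pairs of these genes 9 did not overlap, and all 9 involved sma-3, daf-4 or daf-7. The share of such pairs over all genes was not counted, so the 9 have no background beside them. The pairs of sma-3 without overlap were with daf-1, daf-8, daf-5, sma-6 and daf-4, with differences of 0.89 to 1.52 in size. The mean over the 6 genes found in the dauer pathway alone was 0.19, 0.28, -0.11 and 0.00 in preps 1 to 4, and that over dbl-1, sma-6 and sma-3 was 0.45, 0.30, -0.10 and 0.32. Prep 3 gave the lowest mean in both pathways, and the highest gene was daf-7 in one and sma-3 in the other. These are ratios to the same reference, so they do not compare transcript levels between genes.

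Likeness of pattern was measured as the root mean square difference of the log2 ratios over 4 preps. The closest pair among the 10 genes was sma-6 and daf-8, at 0.25, followed by daf-1 and dbl-1, at 0.28. The nearest to daf-7 was sma-3 at 0.48, and the nearest to daf-4 was daf-5 at 0.58. Among 14510 other genes present on all arrays, the nearest to daf-7 were doxa-1 (0.11), M88.4 (0.12) and grl-1 (0.12). Those nearest to dbl-1 were saeg-2 (0.06), mop-25.1 (0.07) and C17C3.5 (0.08). With 4 values a gene, near matches are easily found among so many, and these names are a description.

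Of 43 other genes tied to the 2 pathways, 37 could be tested. Of these 3 rose and 5 fell, and their median was -0.06. The calls, 8 of 37, stand beside the background of 14.7% in either direction over all features. That background includes probes without a single gene name. Over the 14921 features with 1 gene name, 795 were called higher and 1683 lower. All 8 pathway calls lay among modulators of the body size pathway and among genes known to act with or after the pathways. One gene, bli-4, had no value in prep 3 and was tested on 3 preps.

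**Figure D4:**
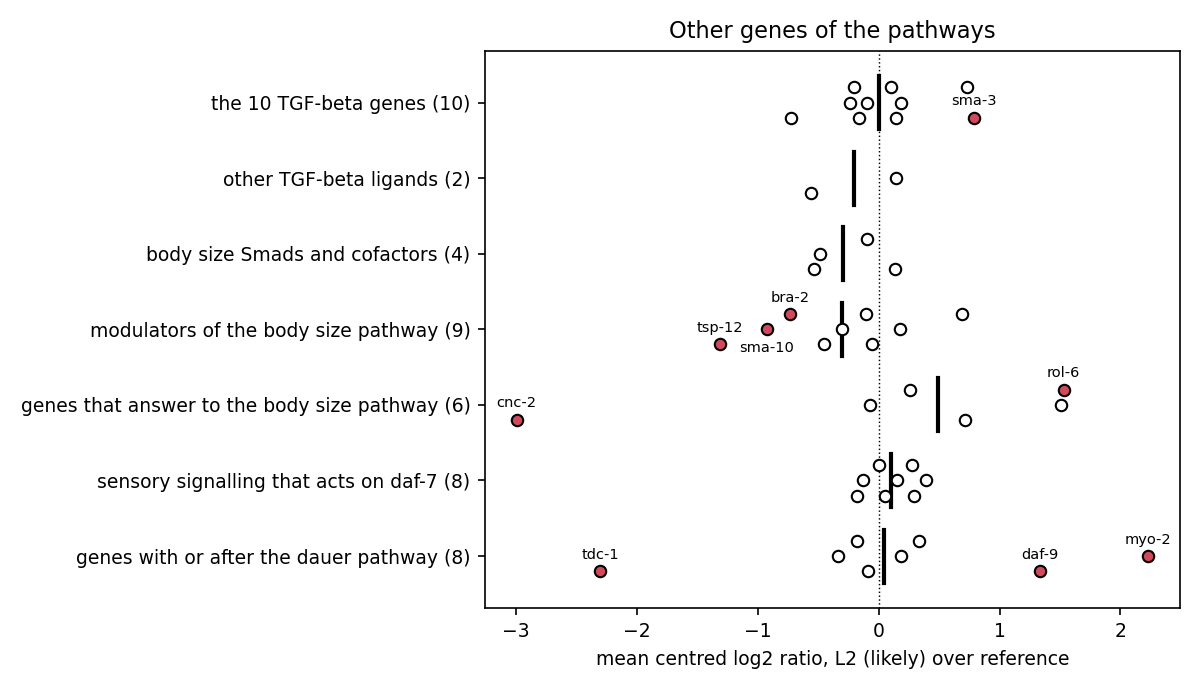
Mean log2 ratio (x axis) of the 10 TGF-beta genes and of 6 lists of other pathway genes, with the number tested in brackets. Each circle is a gene, filled and named where the adjusted p was under 0.05, and black lines are list medians; vertical offsets within a list only separate the circles. The 3 filled circles among the modulators lie below 0, from -1.31 to -0.73.

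Modulators of the body size pathway act on DBL-1, its receptors or their traffic. Of 9 tested 3 fell and 0 rose, at an unadjusted p under 0.05 there were 3 lower and 1 higher, and the median was -0.30. The tetraspanin gene tsp-12, whose product promotes signalling by this pathway, was at -0.91, -1.35, -1.86 and -1.14, with a mean of -1.31 ± 0.41 (SD, n = 4; limma adjusted p = 0.00813). Its 2 probes had means of -1.22 and -1.41. The related tetraspanin gene tsp-14, whose product acts redundantly with TSP-12, was at 0.94, 0.30, 0.42 and 1.10, with a mean of 0.69 ± 0.39 (adjusted p = 0.0583). Every value of tsp-14 lay above 0 and every value of tsp-12 below it. The call of tsp-14 was made without centring (0.0469), with mean centring (0.0435), run centring (0.0323), array weights (0.0233) or the month as a block (0.0381), and among single-name genes (0.0499). It was not made with scale (0.0777) or quantile normalization (0.0683) or a robust fit (0.0822). No fit without 1 prep made it either, with adjusted p from 0.0637 to 0.193.

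The other 2 calls in this list were sma-10 and bra-2. At sma-10, whose leucine-rich repeat and immunoglobulin protein is a positive regulator of the pathway, the ratios were -0.62, -0.90, -1.26 and -0.93, with a mean of -0.93 ± 0.26 (SD, n = 4; limma adjusted p = 0.0154). The call ended without prep 2 (0.0599) or 4 (0.0583). At bra-2, a homolog of a BMP receptor-associated protein, they were -0.78, -0.87, -0.65 and -0.63, with a mean of -0.73 ± 0.11 (adjusted p = 0.0219), and the call ended without prep 1 (0.0955), 2 (0.0861) or 4 (0.0705). The glypican gene lon-2, a negative regulator, was at 0.18 ± 0.19. The germ line markers given above were low in the same samples, and the part of germ line RNA in these 3 ratios was not tested.

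Of 6 genes known to answer to the body size pathway 1 rose and 1 fell. The collagen gene rol-6 was at 1.79, 1.31, 0.76 and 2.26 (mean 1.53 ± 0.64; SD, n = 4; limma adjusted p = 0.0120, and 0.0539 without prep 1). The caenacin gene cnc-2, an antimicrobial peptide of the epidermis that DBL-1 signalling induces, was at -2.83, -3.26, -2.66 and -3.22, with a mean of -2.99 ± 0.29 (adjusted p = 0.000529), or 7.95-fold lower in L2. The spread between preps was small beside this difference, and prep 3 did not stand apart. The gene lon-1, which the pathway represses, was at 0.26 ± 0.28.

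The remaining Smads, cofactors and ligands gave 0 calls. Among 4 tested Smads and cofactors of body size the lowest was tag-68, a Smad-like gene, at -0.54 ± 0.59 (SD, n = 4), with probe means of 0.23 and -1.30, and the highest was sma-9, a Schnurri-like cofactor of the Smads, at 0.14 ± 0.47. At an unadjusted p under 0.05 there was 1 lower, sma-2. Of the other TGF-beta ligand genes tig-2 was at -0.56 ± 0.33, with all 4 preps below 0 and an unadjusted p under 0.05, and unc-129, a ligand that guides motor axons, at 0.15 ± 0.29, or 0.01 without prep 3. Without prep 3 the mean of sma-9 was 0.36.

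Genes of sensory signalling that act on daf-7 also gave 0 calls among 8 tested, and 0 at an unadjusted p under 0.05. Their means lay between -0.18 for the cyclic nucleotide-gated channel gene tax-2 and 0.39 for the guanylyl cyclase gene odr-1, and their median was 0.10. None of them reached the mean of daf-7, 0.73.

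Among 8 tested genes that act with or after the dauer pathway 2 rose and 1 fell. The cytochrome P450 gene daf-9, which makes the dafachronic acid hormone that commits larvae to reproductive growth, was at 1.59, 1.81, 0.78 and 1.16, with a mean of 1.34 ± 0.46 (SD, n = 4; limma adjusted p = 0.00939). Like daf-7 it was highest in preps 1 and 2, where ratios over all probes also spread wider. Other genes here were also highest in those preps, among them dbl-1, daf-14 and myo-2, while daf-8 was lowest in them. The pharyngeal myosin gene myo-2, which has a DAF-3 binding site in its enhancer, was at 2.23 ± 0.57, and the tyrosine decarboxylase gene tdc-1 at -2.30 ± 0.42. Of 4 tested pharynx markers, myo-2 among them, 2 rose and 0 fell, with means from 0.19 to 2.23 and a median of 1.54. Of 5 body wall muscle markers 2 rose and 0 fell, with a median of 1.07. The part of muscle and pharynx RNA in the ratio of myo-2 was not tested. The nuclear receptor gene daf-12, on which dafachronic acid acts, was at 0.33 ± 0.44 and did not pass.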

How the data were processed

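The deposited values were log2 ratios, 1 per probe and array. How the authors corrected background, normalized and filtered spots is not stated in these sources. Base 2 was settled from the values, since 100% of ratios below 0.9 were whole thousandths (tolerance 0.05 of a thousandth). Deposited medians of 0.0158 to 0.0580 show near-centring. Direction stays likely, and a dye bias cannot be told apart from L2.

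Each array was centred on its median and probes of a gene were averaged. Of 21632 probes 16450 had 1 gene name in the platform's annotation, 247 several and 4935 none. By gene ID 16360 matched a newer table (WBcel235), with 0 changed symbols. Features on at least 3 arrays were tested over the whole table with limma 3.58.1 in R 4.3.3 (lmFit, eBayes, two-sided, mean against 0; Benjamini-Hochberg, threshold 0.05), a fit also tested on simulated data. The reference counts as 1 control sample and its own spread is left out. Separate cultures are not stated, so p-values cover the spread of these preps, which may be technical. Intensities were not used here, and precision is limited by having 4 arrays.

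The genes and lists were chosen with earlier results of these data known. Named were all 10 genes, list members past the threshold and, in lists with no call, the highest and lowest mean. Added after their values were seen were sma-2, sma-4, tsp-14, lon-1, lon-2, daf-12, dpy-13 and genes with 1 prep far from the others. Listed but not tested were tig-3, drag-1, crm-1, tsp-21, pdp-1, mgl-3, daf-28 and pha-4. Of the marker lists, intestine had a median of 0.67, with 3 of 6 higher and 0 lower. Figures used Python 3.11.15, pandas 2.3.3 and matplotlib 3.10.9.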

Additional observations from a re-analysis of the deposited data

Results flagged for a closer look

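The screen covered the 47 TGF-beta and pathway genes except bli-4, which had values in only 3 preps. Of these, 5 had 1 prep far from the others by Dixon's test at the 95% level, and in all 5 this was prep 3. Chance alone gives such a flag in about 1 of 20 genes. The share of flags over all genes was not counted. Across genes prep 3 also stood apart (r = 0.52 to 0.59 with the others), so the flags are not shown to be particular to these pathways. The one among the 10 genes was daf-5, at -1.18 in prep 3 against -0.03 to 0.14 in the others. The collagen gene col-41 was at -1.11 in prep 3 against 2.16 to 2.76. The protein kinase gene egl-4 was at -0.70 against 0.53 to 0.69, and the kinase gene kin-29 at -0.82 against -0.02 to 0.12. The channel gene osm-9 went the other way, at 0.94 against 0.01 to 0.10. Over 4 preps col-41 was at 1.51 (limma adjusted p = 0.141) and egl-4 at 0.29 (0.472), and neither passed. Without prep 3 their means were 2.38 and 0.62, while those of osm-9 and kin-29 were 0.06 and 0.04. These genes were picked because prep 3 lay apart, so a fit without prep 3 is no separate test of them.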

How the results depend on the processing

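The count of 1 gene higher among the 10 became 0 against a fold of 1.5, with run centring, and in 3 of the fits without 1 prep (range 0 to 1), where the sign of sma-3 did not turn. The count of 0 lower became 1, daf-4, with scale and quantile normalization, on all 4 arrays, with the month as a block (estimated correlation -0.13) and among single-name genes. Of all features, 652 passed against a fold of 1.5, and 1157 to 3202 in the fits without 1 prep. Pathway genes past the threshold were 3 against a fold of 1.5, and 6 to 10 without 1 prep. Some signs turned, all of genes without a call over 4 preps. In the fits without 1 prep the means ran from -0.169 to 0.0635 for daf-1, -0.36 to 0.0792 for daf-5, -0.0266 to 0.311 for dbl-1, -0.311 to 0.0732 for tax-2 and -0.275 to 0.0395 for kin-29. With array weights daf-1 was at 0.00513, with run centring tax-2 at 0.057, and by single probes 1 probe of tag-68 was at 0.23 (average -0.54) and 1 of sma-2 at 0.0385 (average -0.49). The causes were not tested. No paired analysis was possible because the design holds 1 group. Without intensities, dim spots could not be told from bright ones.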
